A study of Mus musculus with 2 samples.

Results

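This account concerns 37 mouse genes of glycolysis and of the response to low oxygen, chosen by name: glucose transporters, the enzymes from hexokinase to lactate dehydrogenase, lactate transporters, and the oxygen sensors and target genes of the transcription factor HIF-1. They were read in dendritic cells (DCs), the white blood cells that present antigen to T cells, isolated by flow cytometry from the spleen of 8 weeks old mice of the C57BL/6 strain, wild type in genotype. The cells were cultured with IL-27, a cytokine of the IL-12 family, in 1 sample and with vehicle in the other, for a duration the labels give as "ON". Total RNA of each sample was read on 1 array, so nothing below has a replicate check and no p-value or standard error is given. The labels do not give the number of mice or cultures behind a sample, and a sorted population can hold other cells, whose markers are given below. Of the 37 genes, 35 were measured, among 19935 genes named on the arrays. Gpi1, the isomerase that makes fructose 6-phosphate, and Eno1, the widely expressed enolase, had no probe set with a single gene name. Their expression was not analysed here. Ero1l was found under its current symbol, Ero1a.

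Glycolysis splits glucose into pyruvate in the cytosol, and pyruvate is then either oxidised in mitochondria or reduced to lactate and exported. HIF-1 is a dimer of Hif1a and Arnt. With oxygen present, the prolyl hydroxylases of the Egln family mark Hif1a for destruction through Vhl, and without it HIF-1 switches on most genes of glycolysis. DCs activated through Toll-like receptors are known to raise glycolysis, and Hif1a is known to take part in this.

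Values are the authors' deposited intensities, on a linear scale, and differences are log2 of IL-27 over vehicle. The size rule calls a gene higher or lower where the difference reaches 1 on the log2 scale (2-fold) and the larger of its intensities is no less than 96.2, the middle value of the whole table. By this rule 2 of the 35 members, Ndrg1 and Slc16a3, were higher on the IL-27 array, against 0.848% of all genes, and 6 were lower, against 7.36% of all genes (8.21% in either direction). The lower members were Slc2a3, Hk3, Pfkl, Pdk1, Pdk3 and Egln1. Of the others, 24 were over the level minimum without passing the rule, and 3 were below it. Among genes over the level minimum, 6.25% of members and 1.52% of all genes were higher, and 18.8% of members and 13.2% of all genes were lower. With quantile normalization 3 members were higher and 2 lower, against 1.18% and 4.55% of all genes. With the level trend removed 4 were higher and 1 lower, against 1.70% and 3.01% of all genes. Higher genes made up 10.3% of all calls as deposited, 20.6% with quantile normalization and 36.0% with the level trend removed. The 21 measured glycolysis genes had a median difference of -0.07 and the 14 hypoxia genes one of -0.40, beside 0.04 over all genes. Among genes over the level minimum the medians were -0.07 for glycolysis members, -0.53 for hypoxia members and -0.34 for all genes. With the level trend removed the median of the 21 glycolysis genes was 0.17 and that of the 14 hypoxia genes -0.084.

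How far the arrays differed varied with intensity. With genes split into 10 bins of level, the median difference was 0.23 in the bin around 57.1, -0.54 around 233 and -0.34 around 843. Each member was therefore set beside the 1000 genes nearest to it in mean level, and their median and 10th and 90th percentiles are given as a description. Olfactory receptor genes, taken as genes that DCs should lack, had a 95th percentile of 129 on the IL-27 array and 77.3 on the vehicle array. Of the members, 3 (Ldhb, Egln3 and P4ha2) lay at or below this olfactory limit on both arrays, 8 on the IL-27 array only, and 24 on neither. Of the 6 lower members, 4 were at or below it on the IL-27 array, so their fold is given against the limit, as "at least". Here and below, "at least" holds for the deposited scale only. With the level trend removed a difference can be smaller than this fold.

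**Figure D1:**
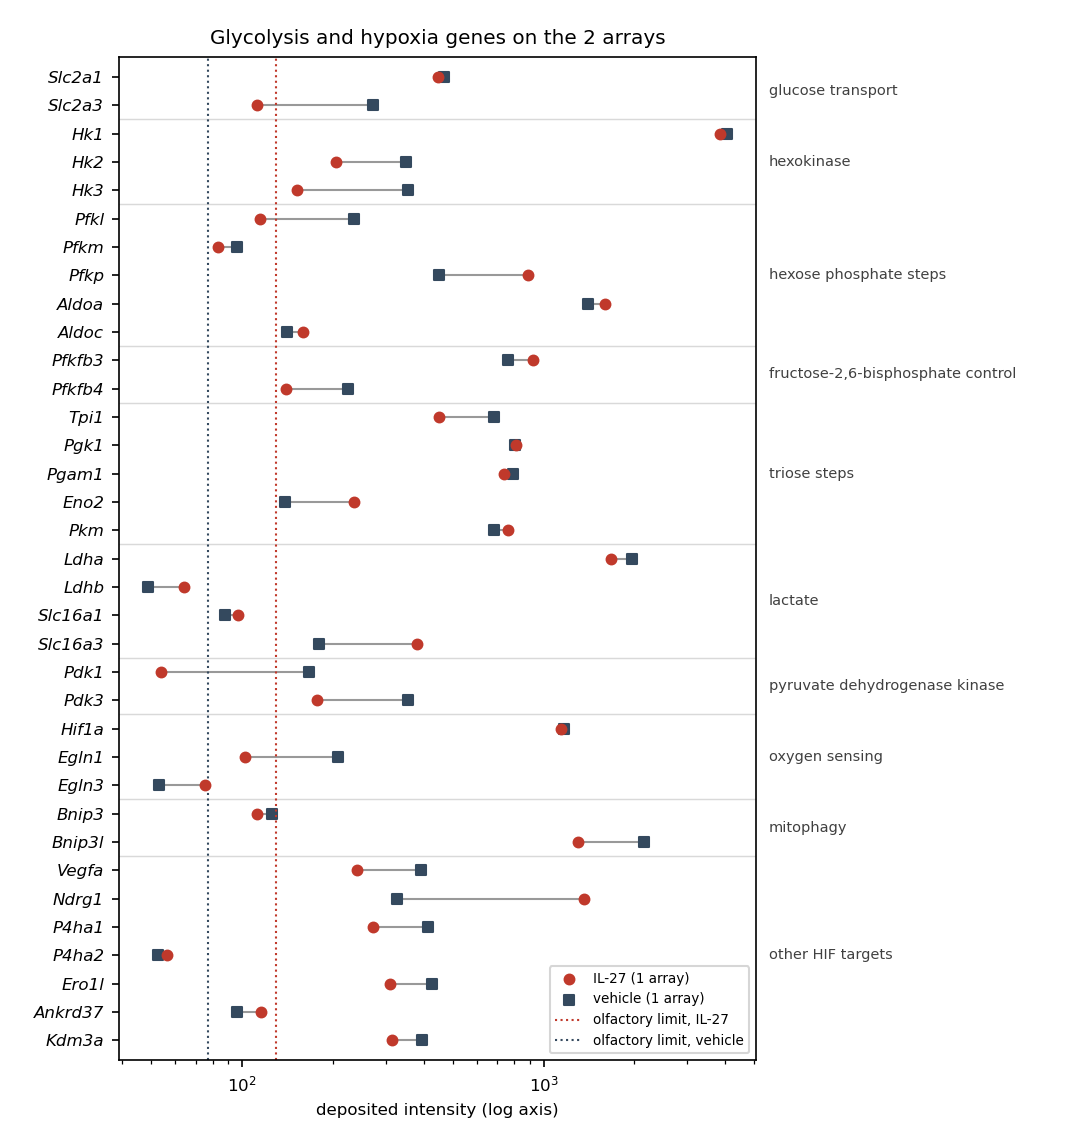
Deposited intensity (log axis) of the 35 measured members on the IL-27 array (circles) and the vehicle array (squares), grouped by role, with 1 array per group. The dotted lines mark the 95th percentile of olfactory receptor genes on each array, 129 for IL-27 and 77.3 for vehicle. Ndrg1 and Pdk1 have the widest gaps, in opposite directions.

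At the entry of glucose, both transporters were measured. Slc2a3, which encodes the high-affinity transporter GLUT3, had an intensity of 112 with IL-27 and 272 with vehicle, at least 2.10-fold lower with IL-27. Its difference of -1.28 lay below the 10th percentile of genes of its level, -1.12, and was -0.90 with the level trend removed, short of the rule. Slc2a1, which encodes the widely expressed GLUT1, had 445 with IL-27 and 466 with vehicle. Its difference of -0.07 lay inside the range of its level, where the median was -0.53, and it turned to 0.42 with the level trend removed.

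Hexokinase traps glucose in the cell as glucose 6-phosphate. Hk3, the isozyme of myeloid cells, had 152 with IL-27 and 355 with vehicle, a 2.34-fold lower level. Hk2, the inducible isozyme, had 205 with IL-27 and 349 with vehicle, a difference of -0.77 that did not pass the rule. Genes of the level of Hk2 and of Hk3 had a median of -0.55 in each case, so both members lay on the low side of a level range that was low as a whole. Hk3 missed the rule with quantile normalization (-0.96) and with the level trend removed (-0.73).

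Hk1, the constitutive isozyme, depended on the probe set. The brighter probe set had 3836 with IL-27 and 4060 with vehicle, a difference of -0.08. Its annotation rests on a single mRNA record, which also stands in all 16 probe sets that name Hk1 together with the ribosomal protein gene Rpl17, and none of those 16 lists a RefSeq transcript of Hk1. The other probe set, which lists the RefSeq transcripts of Hk1, had 151 with IL-27 and 241 with vehicle, a difference of -0.67. By either probe set each of the 3 hexokinases had a lower deposited value with IL-27, though 1 of them passed the size rule. In the bins of level nearest the second Hk1 probe set, around 157 and 233, all genes had medians of -0.37 and -0.54.

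Phosphofructokinase commits sugar to glycolysis, and its 3 genes did not share a direction. Pfkp, the platelet-type subunit, had 888 with IL-27 and 451 with vehicle, 1.97-fold higher and just short of the rule. Pfkl, the liver-type subunit, had 114 with IL-27 and 235 with vehicle, at least 1.82-fold lower. Pfkm, the muscle-type subunit, had 83.2 with IL-27, within the olfactory range, and 96.3 with vehicle. Pfkp lay above the 90th percentile of its level (0.29), and Pfkl just inside the 10th (-1.08). Pfkp passed 2-fold with quantile normalization (1.24) and with the level trend removed (1.41), and Pfkl fell short with both (-0.90 and -0.70). The signs of Pfkp and Pfkl held in both.

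The bifunctional enzymes that set fructose 2,6-bisphosphate, the activator of phosphofructokinase, also differed in direction without passing the rule. Pfkfb3, the isozyme with the highest ratio of kinase to phosphatase activity, had 921 with IL-27 and 762 with vehicle, a difference of 0.27 where genes of its level had a median of -0.36. Pfkfb4 had 140 with IL-27 and 224 with vehicle, a difference of -0.68 beside a median of -0.47. The aldolases, which cut the 6-carbon sugar into trioses, were nearly level: Aldoa had 1597 with IL-27 and 1406 with vehicle, and Aldoc 159 with IL-27 and 140.5 with vehicle.

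None of the 5 measured genes of the triose steps passed the rule, and their median difference was 0.01. Eno2, the enolase known from neurons, had 234 with IL-27 and 139 with vehicle, 1.69-fold higher and above the 90th percentile of its level (0.24). Its difference of 0.76 became 1.16 with the level trend removed, past the rule. Tpi1, triose phosphate isomerase, had 451 with IL-27 and 682 with vehicle, a difference of -0.60 near the median of its level, -0.48. Pgk1, which makes the first ATP of the pathway, had 807 with IL-27 and 803 with vehicle. Pgam1, phosphoglycerate mutase, had 739 with IL-27 and 794 with vehicle. Pkm, pyruvate kinase, had 760 with IL-27 and 683 with vehicle, and its second probe set 732 with IL-27 and 569 with vehicle. The 3 probe sets of Pgk1 differed by 0.01 to 0.02 and those of Pgam1 by -0.14 to -0.10. Near-identical copies of these genes can share probes, so their probe sets are not independent readings.

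At the end of the pathway, the lactate exporter stood apart from the dehydrogenases. Slc16a3, which encodes MCT4, the low-affinity transporter that exports lactate from glycolytic cells, had 380 with IL-27 and 180 with vehicle, 2.11-fold higher. Its difference of 1.08 lay above the 90th percentile of its level (0.07), where the median was -0.57. With median centring it was 0.98, just short of the rule. Slc16a1, which encodes the related transporter MCT1, had 96.8 with IL-27, within the olfactory range, and 87.4 with vehicle. Ldha, which makes lactate from pyruvate, had 1668 with IL-27 and 1962 with vehicle, a difference of -0.23 that turned to 0.01 with the level trend removed. Ldhb had 64.1 with IL-27 and 48.6 with vehicle, below the level minimum on both arrays.

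Both pyruvate dehydrogenase kinases of the list, Pdk1 and Pdk3, which hold back the oxidation of pyruvate in mitochondria, were lower. Pdk1, a classic HIF-1 target, had 53.8 with IL-27 and 167 with vehicle. The IL-27 value lay within the olfactory range, so the level was at least 1.29-fold lower and the deposited difference of -1.63 is not a fixed size. Genes of its level had a median of 0.15 and a 10th percentile of -0.58, and with the level trend removed Pdk1 was the only member still lower by the rule (-1.73). Pdk3 had 177 with IL-27 and 354 with vehicle, a difference of -1.001 at the edge of the rule. With quantile normalization it was -0.69, with the level trend removed -0.49 and with an offset of 16 -0.94.

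Hif1a itself did not differ by the rule, with 1140 on the IL-27 array and 1166 on the vehicle array. Its difference of -0.03 was 0.13 with quantile normalization and 0.29 with the level trend removed. Egln1, which encodes PHD2, the main hydroxylase acting on Hif1a, had 102 with IL-27 and 207 with vehicle, at least 1.60-fold lower. Its difference of -1.02 was -0.93 with quantile normalization, -0.76 with the level trend removed and -0.92 with an offset of 16. Egln3, a hydroxylase that is also a HIF target, had 75.1 with IL-27 and 53.0 with vehicle, within the olfactory range on both. Protein levels and hydroxylation of Hif1a were not measured.

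Among the other HIF targets, Ndrg1 had the largest difference, and it was the only member of this group past the rule. Ndrg1, a stress-responsive gene induced by hypoxia, had 1364 with IL-27 and 327 with vehicle, 4.17-fold higher. Its difference of 2.06 lay far above the 90th percentile of its level (0.28), and it stayed between 1.96 and 2.48 in every setting tried. Ankrd37 had 115 with IL-27, within the olfactory range, and 96.5 with vehicle. Vegfa, Bnip3l, P4ha1, Ero1l and Kdm3a, all known to be induced under hypoxia, had lower deposited values with IL-27.

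Vegfa, the vascular growth factor, had 240 with IL-27 and 391 with vehicle. Bnip3l, a mitophagy receptor, had 1305 with IL-27 and 2153 with vehicle, and its second probe set gave a difference of -0.64 beside -0.72. P4ha1, a collagen prolyl hydroxylase subunit, had 272 with IL-27 and 415 with vehicle. These 3 had lower values by 1.52-fold to 1.65-fold and did not pass the rule. Genes of their level had medians of -0.54 (Vegfa), -0.28 (Bnip3l) and -0.53 (P4ha1). With the level trend removed the differences were -0.18 for Vegfa, -0.46 for Bnip3l and -0.08 for P4ha1. Ero1l, an oxidase of the endoplasmic reticulum, had 310 with IL-27 and 427 with vehicle. Kdm3a, a histone demethylase, had 313 with IL-27 and 396 with vehicle. Both of these turned to values just above 0 with the level trend removed (0.06 and 0.19). Bnip3, the other mitophagy receptor, had 112 with IL-27, within the olfactory range, and 126 with vehicle. P4ha2 had 56.4 with IL-27 and 52.8 with vehicle, below the level minimum.

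**Figure D2:**
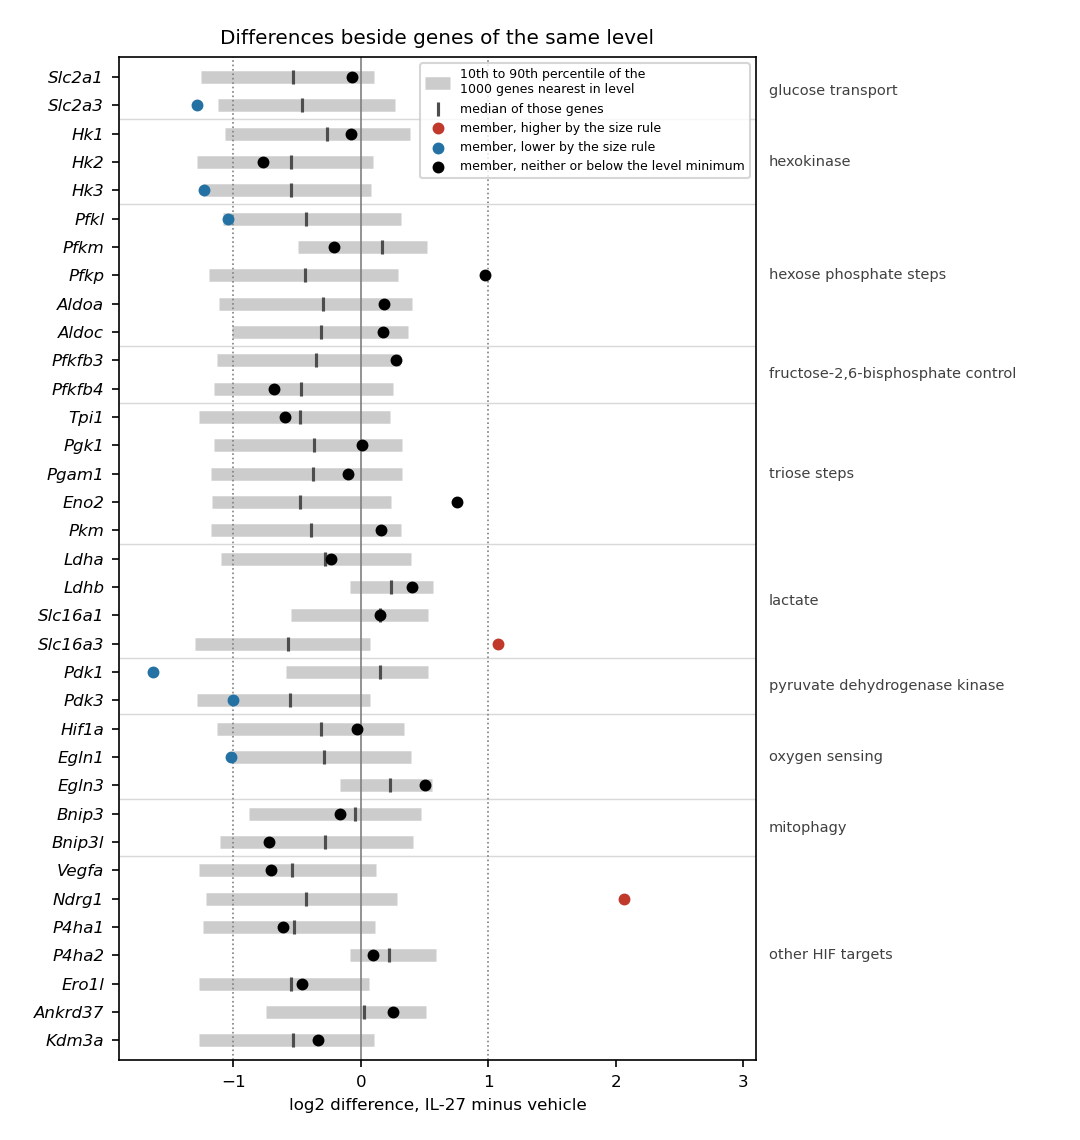
Log2 difference (IL-27 minus vehicle) of each of the 35 members (points) beside the 10th to 90th percentile (grey bar) and median (tick) of the 1000 genes nearest in mean level. Ndrg1, Slc16a3, Pfkp and Eno2 lie above their bars, and Slc2a3, Pdk1 and Egln1 below. The dotted lines mark a 2-fold difference.

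In all, 4 members (11.4%) lay above the 90th percentile of genes of their level, as did 9.82% of all genes. A further 3 (8.57%) lay below the 10th percentile, as did 10.1% of all genes. These shares are near those of all genes. With a 1.5-fold rule, 4 members were higher (11.4%, against 3.28% of all genes) and 12 lower (34.3%, against 18.8%). All genes here include 8795 below the level minimum, which the rule cannot call, while only 3 of the 35 members were below it. The 1.5-fold shares are thus not matched for level. The higher ones at this size were Ndrg1, Slc16a3, Pfkp and Eno2, the same genes that lay above their level range.

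**Figure D3:**
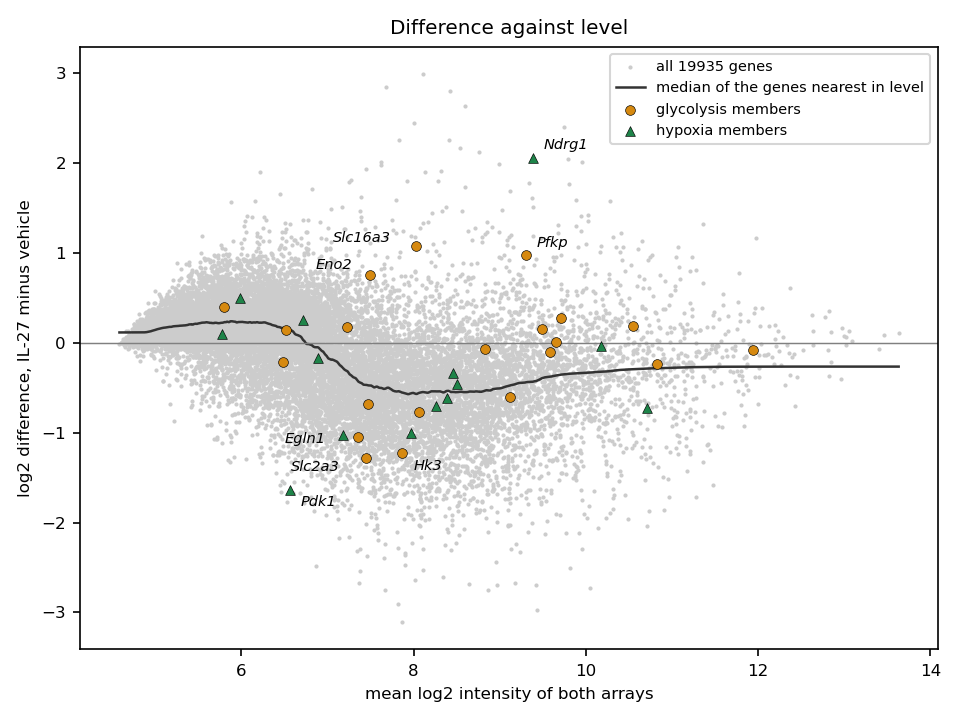
Log2 difference (IL-27 minus vehicle) against mean log2 intensity of both arrays for all 19935 genes (grey), glycolysis members (circles) and hypoxia members (triangles). The line is the median of the genes nearest in level, which is above 0 at low levels and below 0 from the middle levels up.

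HIF-1 binds DNA at a short core motif, ACGTG or GCGTG. Promoters are shown for the lactate exporter gene Slc16a3, which was higher, and for the hypoxia members Pdk1, Pdk3 and Egln1, which were lower, to set regulatory sequence beside members that differed in opposite directions. Each is the 250 bases before the gene's start on the gene's own strand, from RefSeq's GRCm38.p6 annotation, with ACGTG and GCGTG on either strand in capitals (on the other strand they read CACGT and CACGC). Slc16a3 is at chr11:120948817-120949066 on the + strand, Pdk1 at chr2:71872974-71873223 on the + strand, Pdk3 at chrX:93832151-93832400 on the - strand, and Egln1 at chr8:124949255-124949504 on the - strand. Pdk1 has a further start in the table, whose window holds no match. None is shown for Ndrg1.
Slc16a3: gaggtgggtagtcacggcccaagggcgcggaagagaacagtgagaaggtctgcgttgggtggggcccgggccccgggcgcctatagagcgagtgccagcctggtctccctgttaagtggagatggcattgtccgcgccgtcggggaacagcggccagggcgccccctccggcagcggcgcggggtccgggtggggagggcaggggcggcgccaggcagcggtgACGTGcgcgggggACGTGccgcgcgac
Pdk1: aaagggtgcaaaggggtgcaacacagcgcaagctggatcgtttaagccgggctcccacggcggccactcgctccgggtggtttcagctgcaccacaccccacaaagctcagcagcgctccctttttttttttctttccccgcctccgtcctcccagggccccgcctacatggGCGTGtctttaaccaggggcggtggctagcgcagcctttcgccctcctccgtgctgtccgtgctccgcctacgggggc
Pdk3: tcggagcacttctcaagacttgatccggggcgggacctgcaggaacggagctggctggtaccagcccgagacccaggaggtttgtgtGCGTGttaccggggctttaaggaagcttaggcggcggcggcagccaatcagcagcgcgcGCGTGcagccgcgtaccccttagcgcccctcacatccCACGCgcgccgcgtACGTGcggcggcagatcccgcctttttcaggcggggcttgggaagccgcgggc
Egln1: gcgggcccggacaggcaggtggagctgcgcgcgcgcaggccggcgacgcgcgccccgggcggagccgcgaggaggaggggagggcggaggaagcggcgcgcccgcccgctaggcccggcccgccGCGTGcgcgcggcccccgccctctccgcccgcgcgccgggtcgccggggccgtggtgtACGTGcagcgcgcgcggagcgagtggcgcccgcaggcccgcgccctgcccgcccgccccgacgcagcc

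The Slc16a3 window holds 2 matches, 27 and 14 bases before the start, the Egln1 window 2, at 126 and 68 bases, and the Pdk1 window 1, at 78 bases. The Pdk3 window holds 4, at 163, 104, 67 and 53 bases. Windows were found for 34 members, and 31 of these had a match in at least 1 window, as did 41.5% of all genes with a window. A match was found for 1 of 1 higher members, 5 of 5 lower, 21 of 23 not past the rule and 3 of 3 below the level minimum. The unmeasured Eno1 had a match and the unmeasured Gpi1 had none. Over windows, 78.0% of those of members and 38.6% of all windows of this length held a match. Member windows also held more CG pairs, a median of 14 against 6 in all windows, and among all windows with at least 14 CG pairs 67.3% held a match. A match is a description of these letters and was not tested as a binding site.

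Genes of the neighbouring pathways were taken from lists of their known members. Of 44 further genes of glycolysis, pyruvate entry, the pentose phosphate pathway and glycogen, 37 were measured, with a median difference of -0.47. By the size rule 1 was higher and 5 lower. Over the level minimum these were 3.1% and 15.6%, against 1.52% and 13.2% of all genes. Gapdh was not analysed here. The higher gene was Gpd2, the mitochondrial glycerol 3-phosphate dehydrogenase that passes electrons of cytosolic NADH to the respiratory chain, with 890.5 with IL-27 and 445 with vehicle, a difference of 1.001 at the edge of the rule. With median centring Gpd2 was at 0.90, short of the rule. Slc2a6, which encodes a lysosomal sugar transporter, had 728 with IL-27 and 443 with vehicle, a difference of 0.72 that became 1.17 with the level trend removed.

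Glycogen genes had the lowest median difference of these 4 groups. Of 7 measured, 4 were lower and all 7 had a negative difference, with a median of -1.27 as deposited and -0.88 with the level trend removed. Ugp2, which makes UDP-glucose, had 118 with IL-27 and 345 with vehicle, at least 2.66-fold lower. The glycogen phosphorylases were lower too: Pygl had 138 with IL-27 and 366 with vehicle, and Pygb 226 with IL-27 and 544 with vehicle. Pgm1, which links glucose 1-phosphate to glucose 6-phosphate, had 85.0 with IL-27 and 217 with vehicle, at least 1.68-fold lower. With the level trend removed, Ugp2 (-1.09) and Pgm1 (-1.16) stayed past the rule, and Pygl (-0.92) and Pygb (-0.74) did not.

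In the pentose phosphate pathway 0 of 7 genes passed the rule, with a median of -0.69, or -0.22 with the level trend removed. In pyruvate entry 1 of 10 passed, with a median of -0.45. This was Pdk2, another pyruvate dehydrogenase kinase, with 77.8 with IL-27 and 166 with vehicle, at least 1.28-fold lower. Pdk4, with 55.3 with IL-27 and 45.8 with vehicle, lay below the level minimum. With the level trend removed Pdk2 was at -1.05. Pdk1 and Pdk2 reached the level minimum only through the vehicle array, as did Pgm1 and the HIF targets Tfrc and Narf named below.

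Of 38 further HIF pathway and target genes, 36 were measured, 0 were higher and 3 lower, with a median of -0.12. The lower share was 8.33%, against 7.36% of all genes. Over the level minimum it was 11.1%, against 13.2% of all genes. No gene of the pathway itself passed the rule. Arnt, the partner of Hif1a, had 473 with IL-27 and 629 with vehicle, a difference of -0.41 that turned to 0.05 with the level trend removed. Vhl had 254 with IL-27 and 261 with vehicle, and Epas1, which encodes HIF-2 alpha, was below the level minimum. The lower targets were Ddit4, an inhibitor of mTORC1, with 216 with IL-27 and 626 with vehicle, Tfrc, the transferrin receptor, with 91.6 with IL-27 and 237 with vehicle, and Narf, with 88.5 with IL-27 and 189 with vehicle. Ddit4 was 2.90-fold lower, Tfrc at least 1.83-fold and Narf at least 1.46-fold. With the level trend removed, Ddit4 (-1.01) and Tfrc (-1.11) stayed past the rule, and Narf (-0.94) did not.

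**Figure D4:**
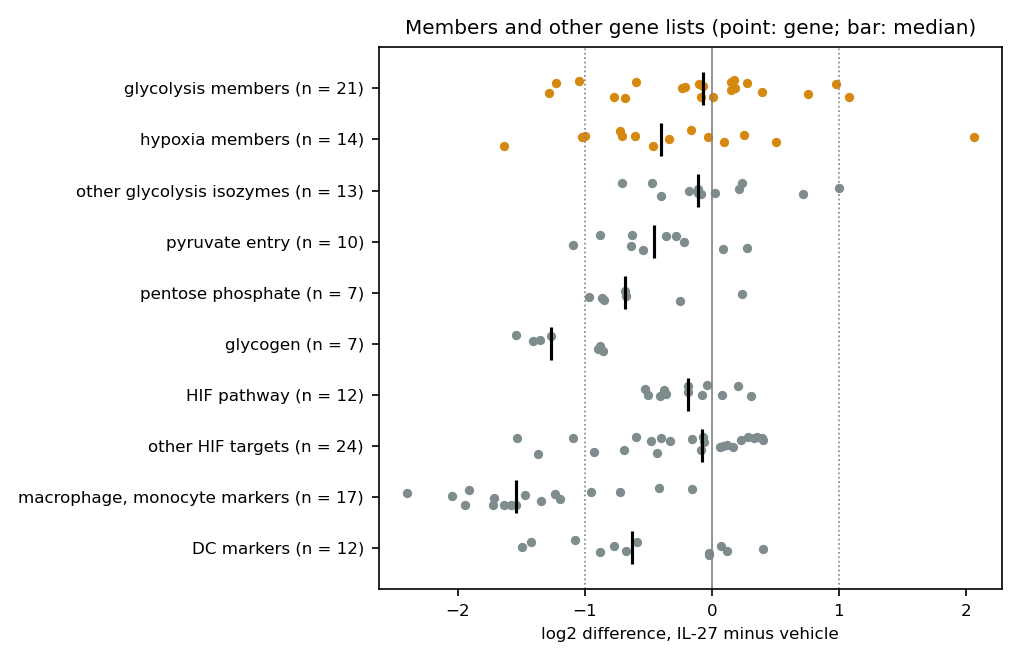
Log2 difference (IL-27 minus vehicle) of each measured gene (points) and the median (bar) in the glycolysis and hypoxia members, in 6 groups of related genes and in 2 marker lists. Glycogen genes (median -1.27) and macrophage and monocyte markers (median -1.54) lie farthest to the left.

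Marker lists of DCs and of other cells had deposited median differences of both signs. Among markers of macrophages and monocytes, 13 of 17 were lower and 0 higher (median -1.54), and the summed intensity of the list was 19833 with IL-27 and 42516 with vehicle. Adgre1, which encodes F4/80, had 786 with IL-27 and 2287 with vehicle. Among DC markers, 3 of 12 were lower (median -0.63), and 9 had a negative difference and 3 a positive one. The list summed to 33068 with IL-27 and 39547 with vehicle. Most of this sum came from H2-Ab1, H2-Aa and Cd74, which were nearly level. H2-Ab1 had 8222 with IL-27 and 8357 with vehicle, H2-Aa 7697 and 7080, and Cd74 8544 and 8134. The sum thus says little about the other DC markers. The lower DC markers were Xcr1, with 559 with IL-27 and 1579 with vehicle, Sirpa, with 1416 with IL-27 and 3797 with vehicle, and Flt3, with 851 with IL-27 and 1796 with vehicle. All 12 DC markers were above the level minimum. Itgax, which encodes CD11c, had 1829 with IL-27 and 3371 with vehicle, and Zbtb46, a transcription factor of conventional DCs, 340 with IL-27 and 344 with vehicle. Of 5 B cell markers, 2 were lower, with a sum of 1002 with IL-27 and 1767 with vehicle. NK cell markers summed to 642 with IL-27 and 1061 with vehicle, with 2 of 6 lower, and T cell markers to 503 with IL-27 and 460 with vehicle, with 0 of 5 past the rule. Neutrophil markers summed to 482 with IL-27 and 556 with vehicle, with 1 of 6 lower. The other 5 had positive differences (median of the list 0.30), and 4 of the 6 were below the level minimum. Erythroid markers summed to 357 with IL-27 and 514 with vehicle, with 1 of 4 lower (Tfrc, also a HIF target). The 4 platelet markers summed to 361 with IL-27 and 315 with vehicle, and none passed the rule. No marker was listed at 0. The lower values of Slc2a3, Hk3, Pfkl, Pdk1, Pdk3, Egln1 and the glycogen genes stand beside lower markers of macrophages, DCs, B cells and other cells. The part of any of these cells in a member's difference was not tested. In bulk RNA, fewer cells of a type and less RNA per cell cannot be told apart.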

How the data were processed

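Gene expression was read on 2 arrays, 1 per group, from the deposited table of 28815 probe sets. Per the file's values, the authors deposited linear intensities, all above 0, and the labels name Affymetrix's WT Terminal Labeling Kit. How the scanned images became these values (background, summary, normalization) is not given in the sources used here. The genome build was mm8, per the submitters' processing notes, and the promoters shown are of GRCm38.p6. The median intensity was 98.9 on the IL-27 array and 92.4 on the vehicle array. Having 1 array per group limits the precision.

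Log2 was taken with no pseudocount. Of the probe sets, 21780 had 1 gene in GEO's platform annotation, 1605 had several and are not named, and 5430 are unnamed here. For each gene the brightest probe set by mean log2 was used, and 7 members had several. Ero1l, Tceb1 and Tceb2 were matched through RefSeq synonyms. The level trend was removed by lowess with a span of 0.3, fitted over 19935 genes. All members were named by rule. Of the lists of related pathway genes, those past the size rule and Arnt, Epas1, Vhl and Gapdh were named. Slc2a6, Pdk4 and the markers Adgre1, Itgax, Zbtb46, Xcr1, Sirpa and Flt3 were chosen after their values were seen, and the other marker genes past the rule are counted but not named, a departure from the naming rule. Members and lists were chosen with earlier results of these data known. The calls and level-matched medians were tested on simulated data. Python 3.11.15, numpy 2.4.6, pandas 2.3.3 and statsmodels 0.14.6 were used.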

Additional observations from a re-analysis of the deposited data

How the results depend on the processing

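No paired analysis was possible because each group had 1 array. The count of higher members, 2 as deposited, was 4 with the 1.5-fold rule, 1 with median centring and 4 with the level trend removed. The count of lower members, 6 as deposited, was 12 with the 1.5-fold rule, 3 against the olfactory limit, 3 with an offset of 16, 2 with quantile normalization and 1 with the level trend removed. In the same order, the lower share of all genes was 7.36%, 18.8%, 5.67%, 6.11%, 4.55% and 3.01%. The higher share was 0.848% as deposited, 3.28% with the 1.5-fold rule, 0.662% with median centring and 1.70% with the level trend removed. The hypoxia median, -0.40 as deposited, was -0.14 with quantile normalization and -0.084 with the level trend removed. The median of the other glycolysis and glucose genes, -0.47, was -0.22 against the olfactory limit. The medians of all members, of the glycolysis members and of the other HIF genes moved by less than 0.25 on the log2 scale under the alternatives tried, though the glycolysis median of -0.07 turned to 0.13 with quantile normalization and 0.17 with the level trend removed. All 8 members past the size rule kept their sign in every setting that gave them a value. Part of this was fixed in advance. Each had 1 probe set, so the 1.5-fold rule and the choice of probe sets could not change its value. Over the deposited values and 3 scalings, 9 of the 35 members took both signs, of which the largest deposited difference was 0.46 in size. With the level trend removed, several smaller lists moved by more than 0.25. Glycogen genes had -0.88 in place of -1.27, pentose phosphate genes -0.22 in place of -0.69, macrophage and monocyte markers -1.17 in place of -1.54, DC markers -0.28 in place of -0.63 and B cell markers -0.25 in place of -0.73. The causes of these shifts were not tested. For all genes, 169 were higher and 1468 lower as deposited, 235 and 907 with quantile normalization, and 338 and 601 with the level trend removed. With the 1.5-fold rule these counts were 653 and 3753. The olfactory limit, and the use of probe sets with a RefSeq transcript only, were chosen after seeing the data.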
